A study of Mus musculus with 3 samples.

Results

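LincRNA loci of a human-named set were followed across polymorphonuclear myeloid-derived suppressor cells (PMN-MDSCs) of mice. They were chosen by name alone: every non-control probe of the array whose name starts with humanlincRNA, 1104 of 60915 probes. Each name holds a locus number and a sign, so the 1104 probes cover 557 loci, with 549 probes of sign + and 555 of sign -. At 547 loci both signs have 1 probe, 2 loci have the + probe alone and 8 the - probe alone. Each member was read in 1 spot per array, and no member spot was saturated or had an outlier flag.

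The study measured total RNA of PMN-MDSCs with a 1-colour (Cy3) lncRNA array in 3 groups of 1 array each. One group came from tumor tissue of tumor-bearing mice, one from the spleen of tumor-bearing mice and one from the spleen of wild-type mice, the group without a tumor. All mice were male C57BL/6 of 6 to 8 weeks, and an MDSC kit was used before sorting on the surface markers CD11b and Ly6G. The labels do not name the tumor line or the number of mice behind an array. The Ly6G antibody clone given there, RB6-8C5, is usually sold against Gr-1, which also covers Ly6C, and the files used here name no probe for a cell type marker, so the identity of the cells was not checked. With 1 array per group there is no replicate check and no test. A difference of 2-fold is a descriptive size limit, and the number of arrays limits the precision. The comparisons of each array of tumor-bearing mice with wild-type spleen share the wild-type array.

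LincRNAs are long transcripts from between protein-coding genes, most of them made by RNA polymerase II, capped and polyadenylated, and many of them spliced. Early catalogues in human and mouse cells found such loci from histone marks of active promoters and transcribed bodies, which mark a stretch of chromatin but not the strand that is read. LincRNAs are known for low levels and for expression in few cell types, and some take part in chromatin regulation. In the myeloid lineage, lncRNAs have been described that bear on differentiation and on inflammatory gene expression. The names of the probes give neither a genome position nor a neighbouring gene, the strand that a sign denotes is not stated, and the probe sequences were not used here, so no position, annotation or sequence is given. Whether these mouse-array probes match mouse counterparts of human loci is likewise not stated.

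Slightly under 50% of the members gave signal on any given array. Well above background, by the scanner software's flag, were 511 of 1104 members with tumor cells (46.3%), 519 with tumor-bearing spleen (47.0%) and 516 with wild-type spleen (46.7%). Over all 60915 probes the shares were 76.1%, 73.7% and 76.8%. The same flag marked 22, 15 and 18 of 300 spots of negative probes on the tumor, tumor-bearing spleen and wild-type arrays, or 7.33%, 5.00% and 6.00%. The median member signal was 12.2, 13.8 and 15.4 units in that order, against 79.7, 76.3 and 99.5 units over all probes. The 95th percentile of the negative spots was 16.0, 15.7 and 19.2 units, so the median member lay below that percentile on each array. On the tumor-bearing spleen array 303 members had the lowest value the array holds, 3.21 units.

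**Figure D1:**
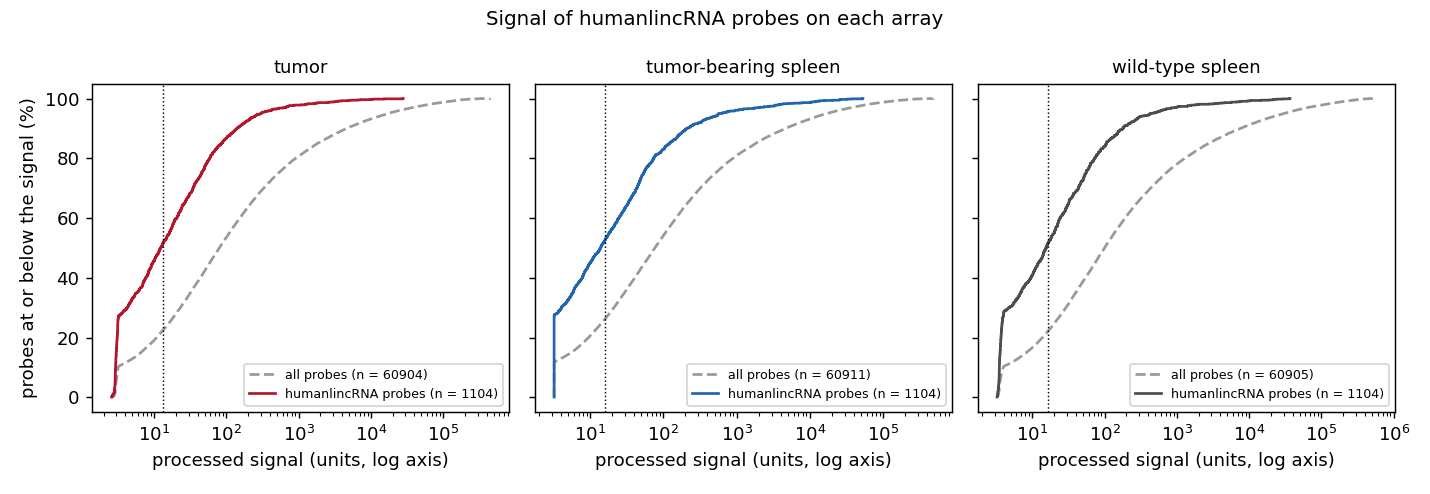
Cumulative share of probes (vertical axis, percent) by processed signal (horizontal log axis, signal units) on each array, for the 1104 humanlincRNA probes (solid) and all probes (dashed). The dotted line marks the lowest signal called well above background, and the members' curve lies left of that of all probes on each array, with medians of 12.2 to 15.4 units.

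Detection was largely common to the arrays. Of the 1104 members, 413 (37.4%) were well above background on all 3 arrays and 486 (44.0%) on none, while over all probes the shares were 67.7% and 16.9%. A further 102 members were detected on 2 arrays and 103 on 1, beside 4834 and 4546 of all 60915 probes. Those detected on 1 array were 41 on tumor-bearing spleen (3.71%, beside 1.57% of all probes), 34 on wild-type spleen (3.08%, beside 3.73%) and 28 on tumor (2.54%, beside 2.17%). Loci of the mouse-named set, with the prefix mouselincRNA, gave nearby shares, with 256 of 649 probes (39.4%) on all 3 arrays and 252 (38.8%) on none.

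A small set of bright members carried most of the signal. A level is the log2 signal of a probe after subtracting that of the 75th percentile on the same array, which was 524 units with tumor cells, 509 with tumor-bearing spleen and 698 with wild-type spleen. This scaling adds 0.41 to each log2 difference of tumor from wild-type spleen, 0.46 to each difference of tumor-bearing spleen from wild-type spleen and -0.04 to each difference of tumor from tumor-bearing spleen. Each ± value is the signal error modelled by the scanner software for a spot, combined over both arrays on the log2 scale. It is technical and holds no variation between mice. For 15 reference probes repeated in 15 to 20 usable spots, the median SD between spots was 0.05, 0.05 and 0.06 log2 units. These are the tumor, tumor-bearing spleen and wild-type arrays, and the median modelled error was 0.14 per spot. On each spleen array 1 of the 15 had an SD above its modelled error. A dim control probe, Rat-PGK1_3, had levels of -3.64, -3.10 and -1.60 on the 3 arrays. Its SDs over 10 spots were 0.91, 0.64 and 0.77. Whether the ± values are too small for dim members was not tested.

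Averaged over the arrays, 42 members lay above the 75th percentile. They held 77.5%, 86.7% and 84.3% of the summed signal of the members with tumor cells, tumor-bearing spleen and wild-type spleen. The brightest, humanlincRNA2330+_P1, read 15159.6 units with tumor cells, 53139 with tumor-bearing spleen and 29145 with wild-type spleen. The next, humanlincRNA2438+_P1, read 28081, 15823 and 36763 units in that order. Behind them humanlincRNA2296+_P1 read 6516, 37167 and 23704 units. After scaling, humanlincRNA2330+_P1 and humanlincRNA2296+_P1 were highest in tumor-bearing spleen and lowest in tumor, and humanlincRNA2438+_P1 was lowest in tumor-bearing spleen.

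Among the other 7 of the 10 brightest, humanlincRNA2199+_P1 read 3468, 31828 and 10056 units with tumor cells, tumor-bearing spleen and wild-type spleen. In the same order humanlincRNA2163-_P1 read 4806, 25435 and 7411 units, and humanlincRNA0847-_P1 read 7244, 25990.4 and 14421 units. Each of these 3 was at least 2-fold higher in tumor-bearing spleen than on either other array, after scaling. The probe humanlincRNA0065-_P1 read 5086, 20086 and 10555 units, humanlincRNA2159-_P1 read 9908, 25458 and 21377 units, and humanlincRNA2397+_P1 read 3953, 13249 and 9208 units. The remaining one, humanlincRNA0318-_P1, read 10568, 13806 and 18557 units, a difference between the spleens of 0.03 ± 0.20 after scaling.

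Across the 42 bright members, which were set apart after their levels were seen, tumor-bearing spleen gave the highest level in 39 and tumor the lowest in 35. The order tumor-bearing spleen, wild-type spleen, tumor held for 34 of them (81.0%). Of 14910 probes of any kind as bright and detected on all 3 arrays, 14.9% had this order, and tumor-bearing spleen was highest in 37.6%. Of the 25 mouselincRNA probes in this class, 14 (56.0%) had the order and 19 had tumor-bearing spleen highest. The class was cut on a mean that includes tumor-bearing spleen, which favours members high there, and 3 of the 42 lay above the 75th percentile on that array alone. When brightness was taken from the mean of tumor and wild-type spleen instead, 37 members were bright, of which 34 (91.9%) were highest in tumor-bearing spleen and 30 (81.1%) had the whole order. All probes chosen that way gave 33.0% and 13.2%, and 24 mouselincRNA probes gave 18 and 13. Without any scaling, 36 of the 42 human-named members were still highest in tumor-bearing spleen and 36 lowest in tumor, and 32 had the whole order. After quantile normalization the counts were 39, 32 and 31. Of 41251 probes of any kind and brightness detected on all 3 arrays, 32.6% were highest in tumor-bearing spleen without scaling. Lowest in tumor were 35.1%, and 7393 had the whole order. With the main scaling these values were 41.6%, 26.5% and 6751, and after quantile normalization 41.6%, 27.1% and 6908.

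**Figure D2:**
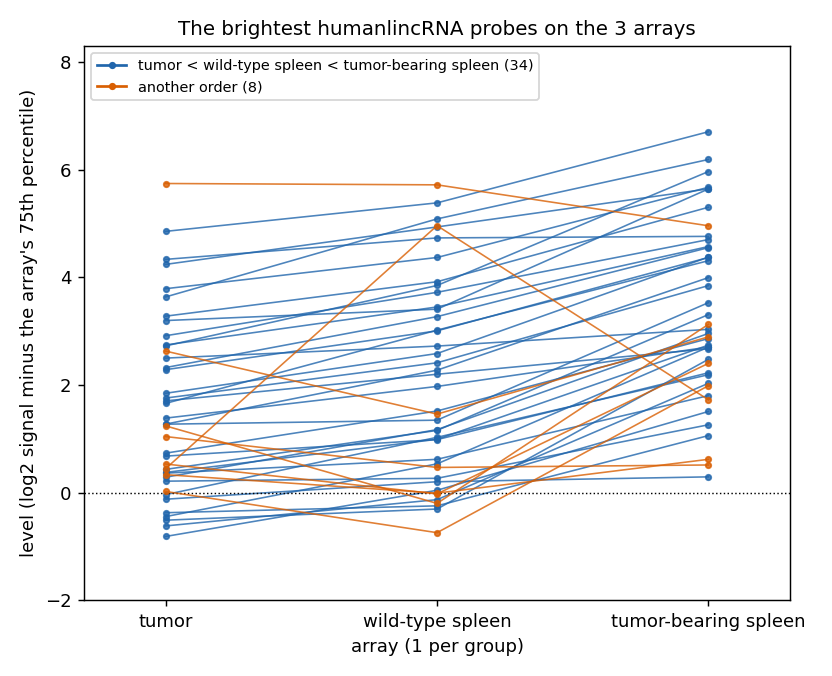
Level (log2 signal minus the 75th percentile of the array) of the 42 humanlincRNA probes whose mean lies above the 75th percentile, with 1 line per probe over the 3 arrays. The 34 blue lines go up from tumor over wild-type spleen to tumor-bearing spleen, and the 8 orange lines have another order.

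The first comparison set tumor PMN-MDSCs against those of wild-type spleen. Of 450 members well above background on both arrays, 35 (7.78%) passed the 2-fold limit with the higher level in tumor cells and 27 (6.00%) with the lower, or 62 in either direction (13.8%). Over all probes compared, 19.6% were called higher and 18.3% lower, or 37.8% in either direction. The median difference of the members was 0.05, beside 0.02 over all probes, and its sign depended on the scaling (-0.36 with no scaling, -0.094 when scaled on the median detected probe and -0.02 after quantile normalization). Past the limit by more than 2 modelled errors were 9 of 450 members higher and 10 lower, beside 13.0% and 12.2% of all probes.

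Among the members higher in tumor cells, humanlincRNA2208-_P1 read 728 units with tumor, 122 with tumor-bearing spleen and 43.3 with wild-type spleen. The difference from wild-type spleen was 4.49 ± 0.24. In 2 other members tumor lay at least 2-fold above both spleens, humanlincRNA1165-_P1 and humanlincRNA0883-_P1. The former read 87.2 units with tumor, 21.2 with tumor-bearing spleen and 40.2 with wild-type spleen, and the latter 39.7, 19.3 and 20.6 units. Under normexp both lay inside the limit, at 0.94 and 0.67 against wild-type spleen and 0.87 and 0.37 against tumor-bearing spleen. Over all probes, 4.65% had tumor at least 2-fold above both other arrays, beside these 3 of the 413 members detected on all 3 (0.73%).

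In 24 of the 413 members detected on all 3 arrays, wild-type spleen lay at least 2-fold below both other arrays (5.81%). Over all probes the share was 14.4%, and humanlincRNA2208-_P1 is among the 24. Another of the 24, humanlincRNA2182+_P1, read 163 units with tumor, 232 with tumor-bearing spleen and 46.9 with wild-type spleen, 2.21 ± 0.23 higher in tumor. A further one, humanlincRNA2017-_P1, read 200.2, 193 and 70.4 units, 1.92 ± 0.22 higher in tumor. In humanlincRNA2182+_P1 and humanlincRNA2017-_P1 the tumor and tumor-bearing spleen arrays differed by -0.55 ± 0.21 and 0.01 ± 0.21. The 2 remaining of the 5 furthest up were humanlincRNA1720+_P1, at 2.34 ± 0.31 on signals of 83.7 and 22.0 units, and humanlincRNA1485-_P1, at 1.93 ± 0.21 on 425 and 148 units. The former rests on a wild-type signal close to background and read 1.14 under normexp. The latter is also among the 24, with 224 units in tumor-bearing spleen. That was 1.05 ± 0.21 above wild-type spleen, or 0.77 under normexp.

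Among the members lower in tumor cells, humanlincRNA0324-_P1 stood far apart. It read 714 units with tumor and 1681 with tumor-bearing spleen, against 21733 with wild-type spleen, so the wild-type array was far above both others. The difference of tumor from wild-type spleen was -4.51 ± 0.20. The same shape at a lower level was seen for humanlincRNA0635+_P1, with 171, 195 and 1024 units, and humanlincRNA1016-_P1, with 177, 197 and 928 units. Their differences were -2.17 ± 0.21 and -1.98 ± 0.21. The 2 remaining of the 5 furthest down, humanlincRNA0388-_P1 at -1.82 ± 0.33 and humanlincRNA2514+_P1 at -1.80 ± 0.35, rest on tumor signals of 17.1 and 16.2 units, close to background. With the normexp background correction, which adds an offset and so shrinks differences of dim probes, both read -0.47.

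A member detected on only 1 of the 2 arrays has a bound. Here the bright array was set against the dimmest signal called well above background on the other array, or against the member's own value where that was higher. Of 61 members detected with tumor but not wild-type spleen, 19 were at least 2-fold higher by this bound (31.1%, beside 51.0% of all such probes), and of 66 with the reverse, 14 were at least 2-fold lower (21.2%, beside 46.0%). The probe humanlincRNA0246+_P1 read 215 units with tumor, 10.7 with tumor-bearing spleen and 15.3 with wild-type spleen, at least 17.3-fold higher in tumor than in wild-type spleen and at least 13.0-fold higher than in tumor-bearing spleen. It was thus high in tumor alone. In humanlincRNA1998-_P1 both arrays of tumor-bearing mice were high, at 188 and 155 units against 14.6 with wild-type spleen, at least 15.1-fold and 12.9-fold higher. High in wild-type spleen alone was humanlincRNA1451+_P1, with 163 units against 3.13 with tumor and 3.21 with tumor-bearing spleen, at least 9.34-fold and 7.37-fold lower in the latter 2. In humanlincRNA1347-_P1 the signal was 280.1 units with wild-type spleen, 46.4 with tumor-bearing spleen and 6.97 with tumor, at least 16.1-fold lower in tumor. The wild-type spots of humanlincRNA1451+_P1 and humanlincRNA1347-_P1 had large modelled errors, of 28.3 and 39.9 units. On that array humanlincRNA0219+_P1 had an error of 16.5 at 161 units, and humanlincRNA0367-_P1 28.3 at 281 units. In humanlincRNA1635+_P1 the signal of 94.2 units with tumor, against 3.21 and 7.56 in the spleens, gave a bound of at least 7.59-fold against wild-type spleen.

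The second comparison set tumor-bearing spleen against wild-type spleen, the same organ with and without a tumor in the host. Here the members leaned to one side. Of 445 compared, 148 (33.3%) read at least 2-fold higher in tumor-bearing spleen and 19 (4.27%) at least 2-fold lower, 167 in either direction (37.5%). Over all probes, 27.4% were called higher and 21.9% lower, 49.3% in either direction. The median difference was 0.69, beside 0.29 over all probes, and 358 of the 445 members (80.4%) read higher. With no scaling the median was 0.24, beside -0.16 over all probes, so the size of the lean rests in part on the scaling. The counts were then 63 of 445 higher and 36 lower, beside 16.5% and 29.1% of all probes. Both shares of the members were below those of all probes. Past the limit by more than 2 modelled errors were 63 of 445 members higher and 6 lower, beside 16.8% and 16.6% of all probes. Here too both shares of the members were below those of all probes.

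The median differed between level classes, which were cut on the mean over all 3 arrays and so favour brighter classes for members high in tumor-bearing spleen. In those more than 4 log2 units below the 75th percentile the median difference was 0.50, close to the 0.46 that the scaling adds, and 0.04 before scaling. Between 3 and 4 below it was 0.55, between 2 and 3 below 0.67, between 0 and 2 below 0.90 and above the 75th percentile 1.31, or 0.86 before scaling. In the last class 30 of 42 were at least 2-fold higher and 1 lower, beside 32.3% and 30.7% of all probes. All probes of the same classes had medians from 0.14 to 0.39, with the lowest in the brightest class. The mouselincRNA probes had medians of 0.40, 0.69, 0.62, 0.76 and 1.27 in the same classes from dim to bright. With classes cut on the tumor array, which is not in this comparison, the members' medians were 0.49, 0.59, 0.79, 0.86 and 1.32 from dim to bright, and those of all probes 0.25, 0.25, 0.30, 0.41 and 0.24. In the brightest of these classes 26 of 37 members were at least 2-fold higher and 1 lower, beside 5155 and 4290 of 15176 probes of any kind.

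The members furthest up between the spleens were humanlincRNA0825-_P1, humanlincRNA0498-_P1, humanlincRNA0955-_P1, humanlincRNA0997+_P1 and humanlincRNA2316+_P1. The first read 127 units with tumor, 735 with tumor-bearing spleen and 63.8 with wild-type spleen, 3.98 ± 0.22 higher in tumor-bearing than in wild-type spleen. The probe humanlincRNA0498-_P1 read 253, 1759 and 184 units in that order, at 3.71 ± 0.21. For humanlincRNA0955-_P1 the signals were 76.7, 495 and 55.4 units, at 3.61 ± 0.22. All 3 were highest in tumor-bearing spleen. In humanlincRNA0825-_P1 tumor lay above wild-type spleen by 1.41 ± 0.22, past the 2-fold limit, or by 0.90 under normexp. In humanlincRNA0498-_P1 and humanlincRNA0955-_P1 it did so by 0.87 ± 0.21 and 0.88 ± 0.23.

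The probe humanlincRNA0997+_P1 was the brightest of the 5, with 1237, 4447 and 608 units and a difference of 3.33 ± 0.20, and humanlincRNA2316+_P1 read 92.7, 558 and 81.5 units, at 3.23 ± 0.21. In 92 of the 413 members detected throughout (22.3%), tumor-bearing spleen lay 2-fold or more above both other arrays, and in 5 (1.21%) 2-fold or more below. Over all probes those shares were 10.0% and 8.14%, and over 256 mouselincRNA probes 20.3% and 1.95%. Wild-type spleen lay that far above both others in 9 members (2.18%) and below in 24 (5.81%), beside 14.5% and 14.4% of all probes. In the brightest class tumor-bearing spleen stood apart upwards in 29 of 42 members, or 15 with no scaling. With the scaling it did so in 12.7% of all probes in that class. Among 41251 probes of any brightness it did so in 4141 with the scaling and 2481 without.

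Lower in tumor-bearing than in wild-type spleen were again humanlincRNA0324-_P1, at -3.24 ± 0.20, and humanlincRNA0635+_P1, at -1.94 ± 0.21. The probe humanlincRNA0518+_P1 was low in tumor-bearing spleen alone, with 16.4 units against 89.2 with tumor and 143 with wild-type spleen, at -2.66 ± 0.35. The probe humanlincRNA1347-_P1 followed at -2.14 ± 0.27 and humanlincRNA0502-_P1 at -1.86 ± 0.27, the latter with 54.0, 26.8 and 133 units with tumor cells, tumor-bearing spleen and wild-type spleen. Also low in tumor-bearing spleen alone were humanlincRNA1812-_P1, with 69.0, 31.6 and 102 units, and humanlincRNA0219+_P1, with 116, 50.9 and 161 units. Under normexp humanlincRNA1347-_P1 read -0.67, humanlincRNA0502-_P1 -0.65, humanlincRNA1812-_P1 -0.45 and humanlincRNA0219+_P1 -0.51 between the spleens, all inside the limit. By bounds, 41 of 74 members detected in tumor-bearing but not wild-type spleen were at least 2-fold higher (55.4%, beside 55.7% of all such probes), and 13 of 71 with the reverse at least 2-fold lower (18.3%, beside 43.7%). The largest upward bounds after humanlincRNA1998-_P1 were those of humanlincRNA0170-_P1, at least 7.26-fold with 87.5 units against 6.82, and humanlincRNA1638-_P1, at least 6.50-fold with 78.3 units against 11.3.

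Position on the slide moved with this difference. On the left side of the slide the median was 0.52 (top) and 0.42 (bottom), and on the right side 0.98 and 0.78, with 20, 22, 55 and 51 members at least 2-fold higher in the same order of 106, 89, 113 and 137 compared. All probes had medians of 0.21, 0.12, 0.41 and 0.43 there. Of all probes, 2637 of 10250, 2284 of 10284, 3468 of 10899 and 3215 of 10890 were at least 2-fold higher. Control probes for housekeeping enzymes, whose names end in 5 or 3, differed between arrays too. Mouse-PGK1_5, for a glycolytic kinase, read -1.93 against wild-type spleen on the tumor-bearing spleen array and -1.98 on the tumor array, and Mouse-PGK1_3 read -0.56 and -0.85. Mouse-GAPDH_5 gave 0.13 and -0.60, and Mouse-GAPDH_3 0.30 and -0.55. The part of slide position and of RNA quality in the members' differences was not tested.

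**Figure D3:**
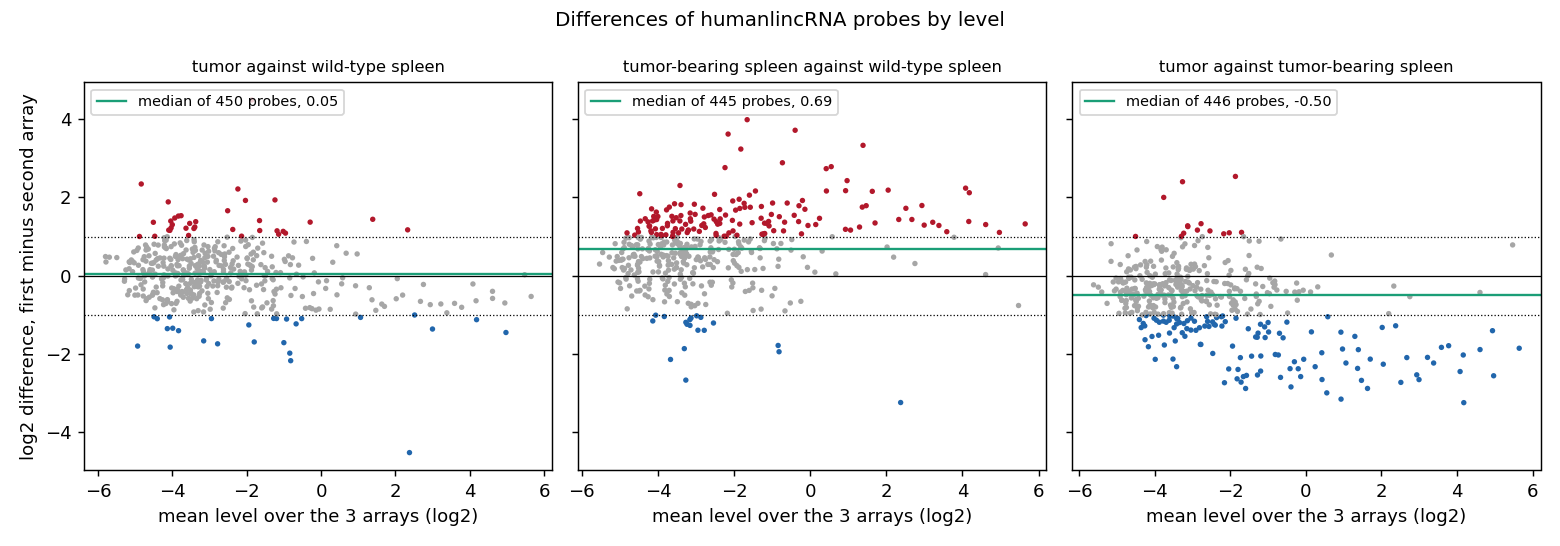
Log2 difference (vertical axis) of each humanlincRNA probe well above background on both arrays of a comparison, by its mean level over the 3 arrays (horizontal axis, log2). Red and blue points are at least 2-fold higher and lower, and the green line is the median: 0.05, 0.69 and -0.50 for tumor against wild-type spleen, tumor-bearing against wild-type spleen and tumor against tumor-bearing spleen.

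The last comparison set PMN-MDSCs of the tumor against those of the spleen in tumor-bearing mice, the only pair of arrays from hosts with a tumor. Of 446 members compared, tumor had the higher level by 2-fold or more in 14 (3.14%) and the lower in 124 (27.8%), 138 in either direction (30.9%). Over all probes 14.2% were called higher and 14.7% lower, 28.9% in either direction. The median was -0.50, beside -0.04 over all probes, and -0.45 with no scaling, a shift of -0.04 by the scaling. Past the limit by more than 2 modelled errors were 3 of 446 members higher and 70 lower, beside 6.96% and 7.81% of all probes. The members' share was below that of all probes upwards and above it downwards. By level, the median ran from -0.38 in the dimmest class over -0.73 between 0 and 2 below the 75th percentile to -1.93 above it, where 34 of 42 were at least 2-fold lower and 0 higher. All probes of the brightest class had a median of 0.10 and mouselincRNA probes -1.43. Of all probes in it, 17.1% were at least 2-fold lower and 16.6% higher. These classes too hold the tumor-bearing spleen level. With classes cut on the wild-type array, the members' median was -0.38 in the dimmest class and -1.85 in the brightest. All probes had -0.16 and 0.18. In that brightest class 28 of 39 members were at least 2-fold lower and 0 higher, beside 2296 and 2787 of 14898 probes of any kind. By slide position the members' median was -0.20 (top) and -0.29 (bottom) on the left side and -0.64 and -0.76 on the right. At least 2-fold lower in the same order were 19 of 111, 19 of 87, 39 of 120 and 47 of 128 members. Of all probes 1332 of 10486, 1133 of 10341, 1832 of 11089 and 2020 of 10927 were. The part of position was not tested here either. Both this comparison and that of the spleens use the tumor-bearing spleen array, so the opposite signs of their medians are not independent of each other.

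Furthest down in the tumor were humanlincRNA2199+_P1, whose signals are given above, at -3.24 ± 0.20, and humanlincRNA1828+_P1, with 385 units in tumor, 3318 in tumor-bearing spleen and 1011 in wild-type spleen, at -3.15 ± 0.20. The probe humanlincRNA2161-_P1 read 367, 2835 and 565 units, at -2.99 ± 0.20. All 3 were high in tumor-bearing spleen, with wild-type spleen between it and tumor. Close behind were humanlincRNA2010-_P1, with 73.7, 527 and 174 units and a difference of -2.88 ± 0.21, and humanlincRNA1918+_P1, with 707, 5044 and 1555 units and a difference of -2.88 ± 0.20.

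In 13 of those 413 members, tumor lay at least 2-fold below both spleens (3.15%, beside 2.51% of all probes). They included humanlincRNA2296+_P1, at -1.45 ± 0.20 against wild-type and -2.55 ± 0.20 against tumor-bearing spleen, and humanlincRNA0312+_P1, with 58.7 units against 299 and 252, whose difference from wild-type spleen was -1.69 ± 0.22, or -0.87 under normexp. They also included humanlincRNA1300-_P1, with 1653 units in tumor against 10094 in tumor-bearing and 5656 in wild-type spleen.

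Higher in the tumor than in tumor-bearing spleen were humanlincRNA2208-_P1, at 2.53 ± 0.21, humanlincRNA0518+_P1, at 2.40 ± 0.35, and humanlincRNA1165-_P1, at 2.00 ± 0.30. Next came humanlincRNA0747-_P1, with 127 units in tumor and 49.2 in tumor-bearing spleen (1.33 ± 0.23), and humanlincRNA0384-_P1, with 84.1 and 33.8 units (1.27 ± 0.25). Apart from humanlincRNA2208-_P1 these were dim, with at most 127 units in tumor, and under normexp they lay inside the limit, at 0.95 (humanlincRNA0518+_P1), 0.87 (humanlincRNA1165-_P1), 0.72 (humanlincRNA0747-_P1) and 0.59 (humanlincRNA0384-_P1). By bounds, 11 of 65 members detected in tumor but not tumor-bearing spleen were at least 2-fold higher (16.9%, beside 29.1% of all such probes) and 29 of 73 with the reverse at least 2-fold lower (39.7%, beside 34.5%). The largest downward bound was that of humanlincRNA1546-_P1, at least 5.98-fold, with 76.1 units in tumor-bearing spleen against 8.89 in tumor.

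At many loci 1 sign was detected without the other. On the tumor array both probes of a locus were well above background at 129 of 547 loci (23.6%), 1 of the 2 at 247 (45.2%) and neither at 171 (31.3%). The tumor-bearing spleen array gave 131, 251 and 165 loci, and the wild-type array 124, 264 and 159. At 161 loci 1 sign was detected on all 3 arrays and the other on none, with the + probe being the detected one at 78 and the - probe at 83. At 112 loci neither sign was detected on any array, which leaves 435 with signal from at least 1 sign on at least 1 array. Neither sign prevailed: 45.0% of + probes and 47.6% of - probes were well above background with tumor cells, and between the spleens 70 of 217 + probes and 78 of 228 - probes read at least 2-fold higher in tumor-bearing spleen (27.4% of all probes). The probes of a locus have different sequences, so a gap in level between them also holds any difference in binding.

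Where both signs were detected, their levels were at least 2-fold apart at 82 of 129 loci on the tumor array (63.6%). On tumor-bearing spleen this held at 91 of 131 loci and on wild-type spleen at 77 of 124. The median gap was 1.34 log2 units (2.53-fold) on the tumor array, 1.77 (3.41-fold) on tumor-bearing spleen and 1.45 (2.72-fold) on wild-type spleen. Under normexp it was 0.58, 0.86 and 0.76 in that order. Across these loci the levels of both signs had a Pearson r of 0.13, 0.11 and 0.18 in that order, and a Spearman rho of 0.03, -0.03 and 0.11, as a description across loci that share an array. Of 86 loci with both signs detected on all 3 arrays, the same sign was brighter on all 3 at 69, the + probe at 39 and the - probe at 30.

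**Figure D4:**
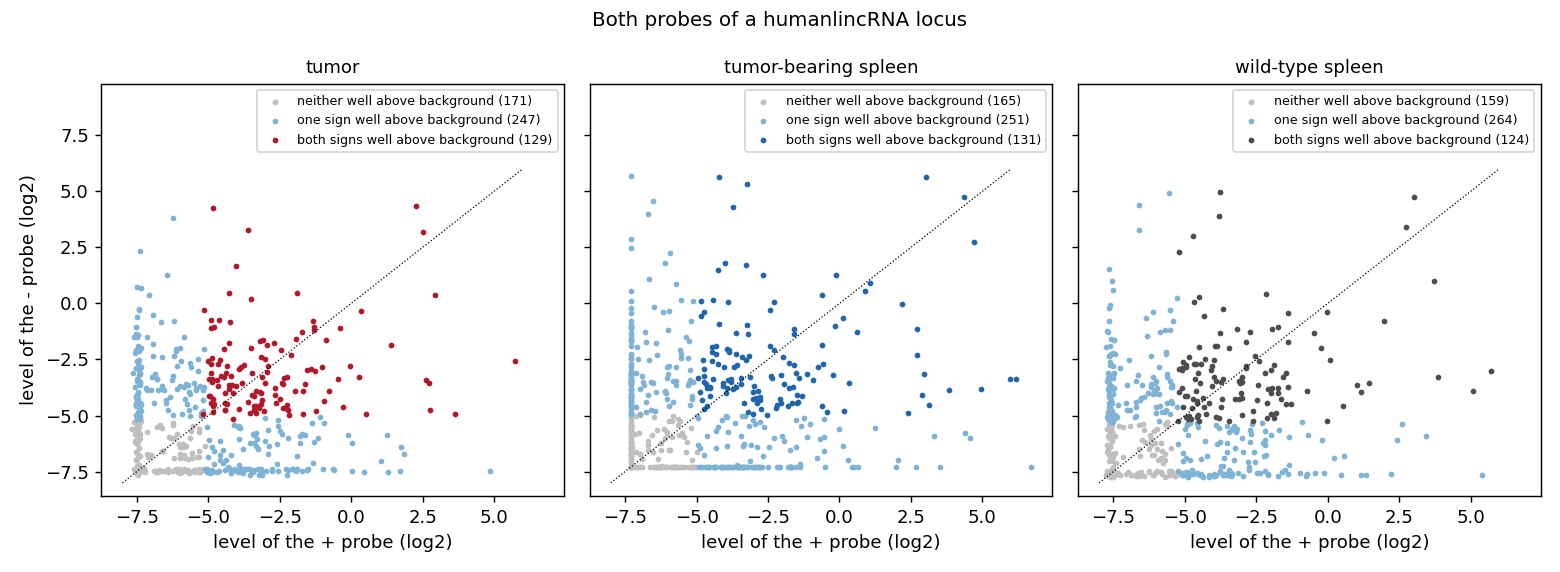
Level (log2 signal minus the 75th percentile) of the - probe (vertical) against the + probe (horizontal) at the 547 loci with both, on each array, with colours for how many of the 2 signs lay well above background. Points spread along both axes, and 129, 131 and 124 loci have both signs detected on the tumor, tumor-bearing spleen and wild-type arrays.

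The largest gaps belonged to loci 2296, 2438 and 0065. At locus 2296 the + probe read 6516, 37167 and 23704 units with tumor cells, tumor-bearing spleen and wild-type spleen, and the - probe 17.1, 48.5 and 47.1 units. At locus 2438 the + probe read 28081, 15823 and 36763 units and the - probe 89.2, 36.3 and 86.4 units. At locus 0065 the - probe was the bright one, with 5086, 20086 and 10555 units against 43.0, 54.5 and 50.2 units. The gaps averaged 9.04, 8.60 and 7.71 log2 units over the arrays. At locus 2438 both signs were lowest in tumor-bearing spleen, and at locus 2296 both were lowest in tumor.

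Of 39 loci with both probes and a mean above the 75th percentile for at least 1 sign, 36 had it for 1 sign only. At 16 of these 36 the other sign was detected on all 3 arrays and at 15 on none, and its level was -5.47 in the median and at most -0.66. Both signs were bright at 3 loci. They were locus 0318, where the + probe read 2553, 10522 and 5607 units beside a - probe of 10568, 13806 and 18557 units, and loci 2163 and 2397. At locus 2163 humanlincRNA2163+_P1 read 2963, 4168 and 4608 units, and at locus 2397 humanlincRNA2397-_P1 read 679.8, 3404 and 1387 units. So at locus 0318 the + probe differed by 1.36 ± 0.20 between the spleens and the - probe by 0.03 ± 0.20, and at locus 2163 the - probe by 2.23 ± 0.20 and the + probe by 0.31 ± 0.20. The smallest gaps were those of loci 1852, 1132 and 0538, at 0.15, 0.16 and 0.32 log2 units in the mean, all among dim probes, the brightest spot being 129 units.

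Differences were also compared between the signs of a locus. Between the spleens, 94 loci had both signs compared, of which 11 had both at least 2-fold higher in tumor-bearing spleen, 37 had 1 sign higher and not the other, and 0 had both lower. The differences of both signs had a Pearson r of 0.08 and a Spearman rho of 0.09 across these loci, and 58 of 94 (61.7%) had the same direction in both. The 11 included locus 1527, where the + probe differed by 1.75 and the - probe by 1.72, locus 0955, with 1.16 and 3.61, and locus 1094, with 1.31 and 2.88. At locus 1527 the + probe read 81.4 units with tumor, 461 with tumor-bearing spleen and 188 with wild-type spleen, and the - probe 154, 249 and 104 units, so both were highest in tumor-bearing spleen.

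At 4 loci the signs passed the limit in opposite directions between the spleens. At locus 0384 humanlincRNA0384+_P1 read 70.5 units in tumor-bearing and 22.7 in wild-type spleen (2.09), and humanlincRNA0384-_P1 33.8 and 97.9 units (-1.08). Under normexp these differences were 0.86 and -0.35. At locus 0740 the + probe read 33.9 and 106 units (-1.19) and the - probe 531 and 287 units (1.34). Loci 1230 and 1972 had -1.06 and 1.03, and -1.04 and 1.27, for the + and - probes. In the other comparisons 0 loci had opposite calls. Between tumor and wild-type spleen 105 loci had both signs compared, with 1 locus higher in both signs (0347) and 1 lower in both (2296, whose - probe read -0.02 under normexp). The differences had r = 0.01 and rho = 0.01, with 58 loci (55.2%) in the same direction. Between tumor and tumor-bearing spleen 98 had both compared, with 13 lower in both signs and 0 higher in both. There r was 0.23 and rho 0.21, with 71 loci (72.4%) in the same direction.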

How the data were processed

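Each of the 3 groups of PMN-MDSCs has 1 array, assigned by its sample title. Per the file headers, the deposited signals are intensity values of a 1-colour scan from Agilent Feature Extraction 11.0.1.1 (the submitters' processing notes name it too), with background removed and a detrending step inside every array, with a grid of build mm9 and no scaling between arrays. The deposited value table holds log2 values, with no stated scaling. The medians of its columns were 6.40, and all 1104 members had a row. Detection used the deposited flags, which are other values than intensity.

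Processed signals were put on the log2 scale, 147 spots with outlier flags and 15 negative probes were left out, repeated spots were averaged, and the 75th percentile of each array over 60915 probes was subtracted. Comparisons took probes flagged well above background in the majority of spots on each of the pair of arrays. Members of other prefixes and all probes were counted alike, and the steps were tested on simulated arrays. With 1 array per group no p-value was computed.

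Named are the 10 brightest members, the 5 furthest in each direction per comparison, the 3 that stand furthest apart per array and direction, the largest bounds and the loci with the largest and smallest gaps between signs, with others chosen after their values were seen (loci with both signs bright or past the limit, and the class of 42 bright members). The text gives part of the bounds. The members and lists were chosen with earlier results of these data known. Alternatives were quantile normalization, scaling on the median probe detected throughout, the value table, normexp (limma 3.58.1 in R 4.3.3, offset 50, on median signals), signals without multiplicative detrending, other detection filters, limits of 1.5-fold and 4-fold and, added after the data were seen, no scaling and level classes cut on the array outside a comparison. Python 3.11.15 with numpy 2.4.6, pandas 2.3.3 and matplotlib 3.10.9 was used.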

Additional observations from a re-analysis of the deposited data

How the results depend on the processing

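The counts of members called stayed within 1.5 times under quantile normalization, the deposited value table, scaling on the median detected probe, signals without multiplicative detrending and detection required on all 3 arrays. So did the medians and gaps between signs, except the median of tumor against wild-type spleen, which turned to -0.020 under quantile normalization, -0.019 in the value table and -0.094 when scaled on the median detected probe. The value table gave the same counts of members called as quantile normalization in each comparison, so these settings are not separate checks. Under normexp 9 members were higher and 7 lower in tumor than in wild-type spleen (median 0.18), 81 higher and 4 lower in tumor-bearing than in wild-type spleen (0.51), and 1 higher and 70 lower in tumor than in tumor-bearing spleen (-0.25). These counts are out of 450, 445 and 446 members compared. Of all probes, 14.4% and 14.3%, 19.8% and 17.6%, and 8.75% and 9.33% were called higher and lower under normexp. With no filter on dim probes, which compares all 1104, the members' counts were 137 and 104 (0.14), 279 and 102 (0.36), and 102 and 237 (-0.21). All probes then gave 20.3% and 18.6%, 25.4% and 22.5%, and 16.3% and 15.1%. With no scaling the members' counts were 11 and 81 (-0.36) for tumor against wild-type spleen and 63 and 36 (0.24) between the spleens. All probes then gave 13.4% and 27.8%, and 16.5% and 29.1%. At 1.5-fold the members' counts were 89 and 82, 249 and 36, and 34 and 199, and at 4-fold 3 and 2, 21 and 3, and 2 and 45. Of all probes, 29.5% and 27.9%, 40.1% and 28.3%, and 25.9% and 26.7% passed 1.5-fold. At 4-fold the shares of all probes were 7.96% and 7.78%, 8.79% and 11.6%, and 2.72% and 3.45%. The gap between signs was 0.58, 0.86 and 0.76 under normexp, and 2.04, 2.18 and 2.15 with no filter, on the tumor, tumor-bearing and wild-type arrays in turn. Of 882 recomputed differences of named probes, 664 stayed within the modelled error, 218 moved by more and 0 that were past the limit changed sign. Of 84 named differences past the limit, 28 lay inside it under normexp, 8 with no scaling, 4 under quantile normalization, 4 in the value table, 2 when scaled on the median detected probe and 1 without multiplicative detrending. No paired analysis was possible because each group has 1 array. Signal limits 486 of 1104 members (44.0%), which were not well above background on any array.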

Other observations

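Members with consecutive locus numbers and the same sign did not move alike. Between the spleens, 47 such pairs of members were compared, 2 of which had both at least 2-fold higher in tumor-bearing spleen, and their differences had a Pearson r of 0.07 and a Spearman rho of -0.14 across pairs, which share arrays. For tumor against wild-type spleen 46 pairs had 0.04 and -0.03, and for tumor against tumor-bearing spleen 48 pairs had 0.001 and 0.03. Whether consecutive numbers lie side by side in the genome is not stated.

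The members made up 1.81% of the probes but 0.063%, 0.163% and 0.072% of the summed signal of all non-control probes on the tumor, tumor-bearing spleen and wild-type arrays, before any scaling. The 10 brightest members of each array held 55.1%, 56.7% and 60.4% of the members' summed signal.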
